A study of Homo sapiens with 6 samples.

Results

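The genes described here were 8 keratin genes, KRT8, KRT18, KRT19, KRT20, KRT23, KRT80, KRT10 and KRT15, grouped as simple epithelial keratins. They were found by matching the Ensembl gene identifiers of the gene tables to these symbols, and all 8 were matched among the 56632 genes listed. The cells were HCT116, an established human colorectal cancer line. One set of cultures received a pool of siRNAs against Matrin3 (siMatrin3, 3 libraries) and the other a negative control siRNA (siCTRL, 3 libraries). Every culture was transfected and later transfected again. The labels give intervals of 72 and 48 hours, read here as the time between the transfections and the time from the last transfection to collection. The study's methods place the RNA purification later and describe reseeding in between. All libraries were made from poly(A)-selected RNA, and the methods call them biological triplicates. A single siRNA pool and a single control siRNA were used, and whether either reagent acts on keratin genes in another way was not tested.

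Keratins are the intermediate filament proteins of epithelial cells. A filament is built from pairs of an acidic type I keratin and a basic type II keratin, and a keratin protein without a partner is usually degraded. KRT8 with KRT18 is the main pair of single-layered epithelia such as the intestinal lining, where KRT19 and, in mature cells, KRT20 join the type I side. The filaments are anchored at desmosomes and hemidesmosomes and give the cell sheet its mechanical strength. KRT10 and KRT15 are best known from stratified epithelia, KRT10 from the suprabasal epidermis and KRT15 from its basal layer and the hair follicle, so the name of the group describes these 2 genes less well than the others.

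KRT8 and KRT18 were among the most abundant mRNAs of these cells, and KRT18 was the 1 member that passed the test, with a level 9.83% lower in siMatrin3 cells. Expression is given in TPM, a measure corrected for transcript length and scaled to the same sum in every library, which allows genes to be compared with each other. Fold changes and p-values came from edgeR's quasi-likelihood test on rounded expected counts, adjusted by the Benjamini-Hochberg method over 16786 genes, and a gene was called changed at an adjusted p under 0.05. Of the 8 members, all of which were tested, 0 were higher and 1 was lower in siMatrin3 cells (12.5%), beside 11% of all genes called, 5.05% higher and 5.97% lower. The median log2 fold change of the members was 0.04, beside -0.00106 over all genes tested, with 5 positive and 3 negative values between -0.15 and 0.34. At an unadjusted p under 0.05 in edgeR there were 2 members, beside 26% of all genes. The groups did not overlap in TPM for 1 member, beside 25.1% of all genes. Each of these shares was close to that of all genes or below it.

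Matrin3 mRNA (MATR3) was examined in every library as a check of the labels. MATR3 had 95.2, 112 and 111 TPM in the siMatrin3 libraries, against 186, 180 and 176 TPM in the siCTRL libraries. By counts it fell by 47.5% (log2 fold change -0.93, SE 0.0647, edgeR adjusted p = 7.67e-05, n = 3 each), and the groups did not overlap in TPM. The fall was smaller once transcript length was taken into account. Mean TPM was 106 in siMatrin3 cells and 181 in siCTRL cells, and with an offset for transcript length the log2 fold change was -0.76. Library totals were 40808173 to 54185650 expected counts, mitochondrial genes took 13.5% to 15.2% of them, and 14033 to 14368 genes reached 1 TPM. Among 15 intestinal epithelial markers, EPCAM had 235 to 249 TPM, CDH1 67.5 to 76.8 TPM and CDX2 7.48 to 8.86 TPM over the 6 libraries, while 8 were under 1 TPM in every library, VIL1, CDH17 and CEACAM5 among them. Squamous markers summed to 6.65 to 8.94 TPM in siMatrin3 libraries and 5.55 to 7.41 TPM in siCTRL libraries, with TP63, KRT5 and KRT14 at or below 0.23 TPM in every library. Fibroblast markers summed to 15.1 to 19.4 TPM in siMatrin3 libraries and 13.9 to 16.5 TPM in siCTRL libraries, nearly all of it COL1A1. Blood cell markers summed to 14.6 to 19.9 TPM in siMatrin3 libraries and 13.3 to 18.5 TPM in siCTRL libraries. Of these 10 blood cell markers, 9 were under 1 TPM in every library, and the leukocyte marker PTPRC was at 0 in all 6. In these bulk RNA samples, fewer cells of a type and less RNA per cell cannot be told apart.

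KRT18 (ENSG00000111057, chromosome 12) encodes the type I partner of KRT8 in simple epithelia. Its level was 856, 910 and 925 TPM in the siMatrin3 libraries, against 974, 1017 and 1030 TPM in the siCTRL libraries. Every siMatrin3 library was below every siCTRL library, although the gap between the nearest libraries was smaller than the range within either group. The means were 897 ± 35.9 TPM in siMatrin3 cells and 1007 ± 29.5 TPM in siCTRL cells (SD, n = 3 each). KRT18 fell by 0.15 on the log2 scale in edgeR (SE 0.0384, adjusted p = 0.033), a change slightly larger than the median absolute log2 fold change of all genes, which was 0.11. Its sign held in 17 of 17 alternative analyses and its call in 9. The call was lost without siCTRL replicate 2 (adjusted p = 0.051), siCTRL replicate 3 (0.139), siMatrin3 replicate 1 (0.0819), siMatrin3 replicate 2 (0.0907) or siMatrin3 replicate 3 (0.0692).

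KRT8 (ENSG00000170421, chromosome 12), the type II partner of KRT18 and the most abundant keratin mRNA of these cells, had a value in the same direction that did not pass the test. KRT8 stood at 1037, 1157 and 1181 TPM in siMatrin3 libraries, against 1173, 1246 and 1287 TPM in siCTRL libraries. The highest siMatrin3 library was above the lowest siCTRL library, so the groups overlapped. Means were 1125 ± 77.0 TPM in siMatrin3 cells and 1235 ± 57.5 TPM in siCTRL cells (SD, n = 3 each). In edgeR its log2 fold change was -0.11 (SE 0.0496) at an adjusted p of 0.175. The value stayed negative in 17 of 17 alternatives, between -0.15 and -0.07, and passed in 1, the fit without a filter on low counts (adjusted p = 0.029).

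KRT19 (ENSG00000171345, chromosome 17) encodes the smallest keratin, a type I protein without the usual tail domain. It had 482, 457 and 490 TPM in siMatrin3 libraries, against 480, 371 and 452 TPM in siCTRL libraries. The siMatrin3 libraries lay close together, siCTRL replicate 2 stood below the others, and the groups overlapped. KRT19 averaged 476 ± 17.3 TPM in siMatrin3 cells and 434 ± 57.0 TPM in siCTRL cells (SD, n = 3 each). The log2 value of the change in edgeR was 0.15 (SE 0.0814) at an adjusted p of 0.288. Without siCTRL replicate 2 the log2 fold change was 0.04, and without siCTRL replicate 1 it was 0.23. It passed the threshold in 1 alternative, again the fit without a filter on low counts (adjusted p = 0.0188).

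**Figure D1:**
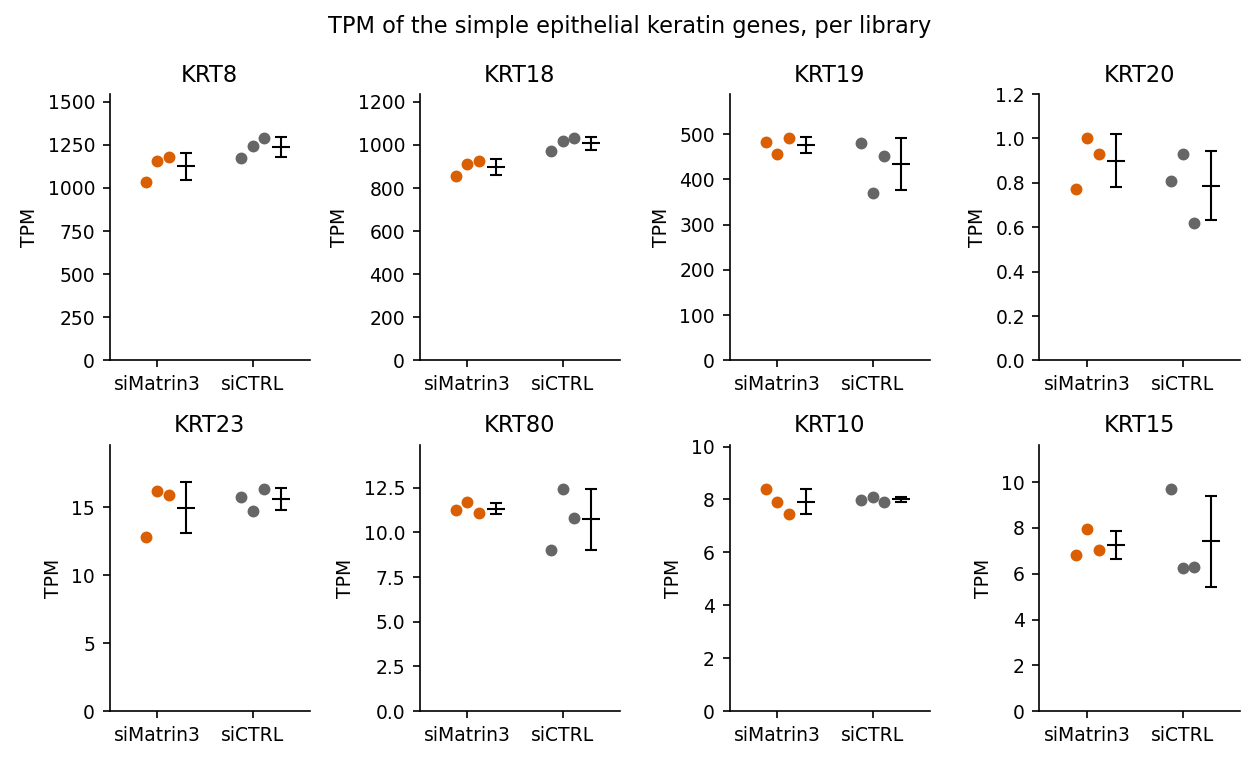
TPM of each of the 8 keratin genes (vertical axes, each starting at 0) in the 3 siMatrin3 libraries (orange, left) and the 3 siCTRL libraries (grey, right), with the mean and SD of each group as black bars. KRT18 is the 1 gene whose groups do not overlap, with 856 to 925 TPM in siMatrin3 libraries and 974 to 1030 TPM in siCTRL libraries.

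The other 5 members were expressed at a far lower level and none passed the test. KRT20 (ENSG00000171431), a type I keratin of differentiated intestinal and urothelial cells, was the lowest, at 0.77, 1.0 and 0.93 TPM in siMatrin3 libraries, against 0.81, 0.93 and 0.62 TPM in siCTRL libraries. These values rested on 38 to 55 expected counts per library, and the log2 fold change of KRT20 was 0.34 with an SE of 0.204 (edgeR adjusted p = 0.337). The mRNA of this differentiation marker was thus scarce in both groups, whose ranges overlapped. KRT23 (ENSG00000108244), a type I keratin first described as induced by a histone deacetylase inhibitor in pancreatic cancer cells, had 12.8, 16.2 and 15.9 TPM in siMatrin3 libraries, against 15.8, 14.7 and 16.3 TPM in siCTRL libraries (log2 fold change -0.05, SE 0.0836, adjusted p = 0.738). KRT80 (ENSG00000167767), a type II keratin found in many epithelia, had 11.3, 11.7 and 11.1 TPM in siMatrin3 libraries, against 9.0, 12.4 and 10.8 TPM in siCTRL libraries (log2 fold change 0.10, SE 0.0877, adjusted p = 0.527). For KRT23 a single siMatrin3 library, replicate 1, was the low value, and for KRT80 the siMatrin3 libraries lay inside the range of the siCTRL libraries.

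KRT10 and KRT15, the members of stratified epithelia, had similar levels to each other. KRT10 (ENSG00000186395) was at 8.39, 7.89 and 7.45 TPM in siMatrin3 libraries, against 7.97, 8.11 and 7.92 TPM in siCTRL libraries, and its fold change, 0.01 on the log2 scale (SE 0.0671, adjusted p = 0.963 in edgeR), was the nearest to 0 among the members. KRT1, its type II partner in the epidermis, was listed at 0 in all 6 libraries. KRT15 (ENSG00000171346) had 6.80, 7.96 and 7.05 TPM in siMatrin3 libraries, against 9.69, 6.25 and 6.28 TPM in siCTRL libraries (log2 fold change 0.07, SE 0.127, adjusted p = 0.79). The siCTRL libraries enclosed all siMatrin3 libraries, with siCTRL replicate 1 well above the rest, and without it the log2 fold change of KRT15 was 0.24. Among the 17 alternatives the sign of the fold change was opposite in 2 for KRT23, 2 for KRT80, 6 for KRT10 and 4 for KRT15, and in 0 for the other members.

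The order of levels was the same in both groups, KRT8 first, then KRT18, KRT19, KRT23, KRT80, KRT10 and KRT15, and KRT20 last. KRT10 and KRT15 overlapped in both groups, and no other neighbours in that order did. Taken as a ratio, the step between KRT19 and KRT23 was the widest. The lowest KRT19 value was 457 TPM in siMatrin3 libraries and 371 TPM in siCTRL libraries. The highest KRT23 value was 16.2 TPM in siMatrin3 libraries and 16.3 TPM in siCTRL libraries. By mean TPM among all genes tested, KRT8 ranked 111 in siMatrin3 cells and 106 in siCTRL cells, KRT18 ranked 125 in siMatrin3 cells and 124 in siCTRL cells, and KRT19 ranked 184 in siMatrin3 cells and 199 in siCTRL cells. KRT8, KRT18 and KRT19 together made up 95.7% of the TPM of all keratin genes in siMatrin3 cells and 96.5% in siCTRL cells.

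The tables listed 55 protein-coding keratin genes, 29 of type I and 26 of type II. Most had little or no mRNA, with 18 at 0 in all libraries and 43 under 1 TPM in all, and 14 passed the filter on low counts. Of these 14, 2 rose, KRT7 and KRT13, and 1 fell, KRT18, a share of 21.4% beside 11% of all genes. Their median log2 fold change was 0.08, 5 were under an unadjusted p of 0.05, beside 26% of all genes, and 4 did not overlap between groups (28.6%, near the 25.1% of all genes).

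KRT7, a type II keratin of ductal and glandular epithelia that is usually scarce in normal colon, was the clearest change on the type II side. KRT7 had 61.1, 66.9 and 64.8 TPM in siMatrin3 libraries, against 41.1, 52.1 and 54.4 TPM in siCTRL libraries. All siMatrin3 libraries were above all siCTRL libraries, and the mean was 64.3 ± 2.93 TPM in siMatrin3 cells and 49.2 ± 7.08 TPM in siCTRL cells (SD, n = 3 each). Its log2 fold change was 0.44 (SE 0.094, edgeR adjusted p = 0.0154), between 0.32 and 0.51 over the alternatives, of which 13 of 17 kept the call. Without siMatrin3 replicate 2 the adjusted p was 0.0552, and without siMatrin3 replicate 3 it was 0.065.

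KRT13, a type I keratin of non-cornified squamous epithelia, rose as well, at a very low level. It had 1.12, 2.07 and 2.21 TPM in siMatrin3 libraries, against 0.50, 0.25 and 0.75 TPM in siCTRL libraries, with no overlap. The log2 fold change was 1.3 (SE 0.336, edgeR adjusted p = 0.0333), on 10.6 to 81 expected counts per library. KRT13 kept its call in 11 of 17 alternatives. Among single libraries left out, the call was lost without siCTRL replicate 1 (0.0655), siMatrin3 replicate 2 (0.0842) or siMatrin3 replicate 3 (0.126). KRT4, its type II partner, was at or below 0.11 TPM in every library. KRT16, a type I keratin of wounded and hyperproliferative epidermis, had 0.91, 0.84 and 1.03 TPM in siMatrin3 libraries, against 0.48, 0.62 and 0.59 TPM in siCTRL libraries, and its log2 fold change of 0.68 did not pass (adjusted p = 0.0875). The remaining tested keratin genes, KRT81 (0.30), KRT86 (-0.19) and KRT222 (-0.24), had adjusted p of 0.583, 0.579 and 0.495, and KRT81 and KRT86 are near-identical hair keratin genes whose reads cannot be fully told apart.

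**Figure D2:**
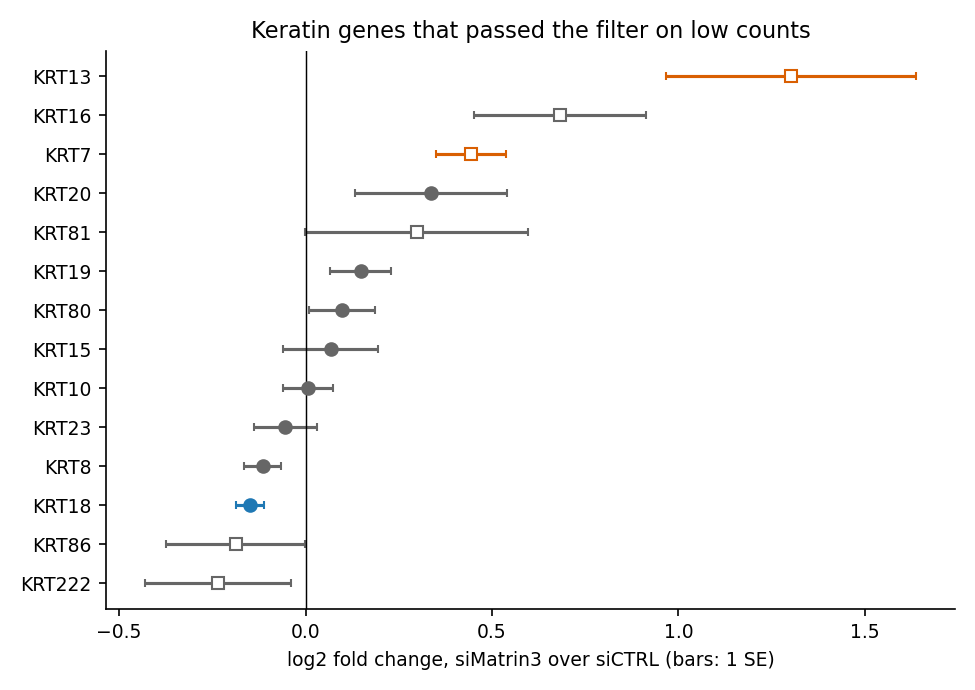
Log2 fold change of siMatrin3 over siCTRL (horizontal axis, bars 1 SE) for the 14 keratin genes that passed the filter on low counts, with filled circles for the 8 members and open squares for the other keratin genes. Orange marks genes called higher and blue marks genes called lower in siMatrin3 cells, so that KRT13 (1.3) and KRT7 (0.44) lie to the right and KRT18 (-0.15) to the left of 0.

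Since keratins assemble in pairs, their mRNA levels were also summed by type. Type I keratin mRNA came to 1371, 1405 and 1452 TPM in siMatrin3 libraries, against 1492, 1421 and 1517 TPM in siCTRL libraries. Type II keratin mRNA came to 1111, 1238 and 1258 TPM in siMatrin3 libraries, against 1225, 1312 and 1354 TPM in siCTRL libraries. The groups overlapped for either type and for the ratio of type II to type I, which was 0.853 ± 0.0373 in siMatrin3 cells and 0.879 ± 0.0527 in siCTRL cells (SD, n = 3 each). All keratin mRNA together was 2481, 2642 and 2710 TPM in siMatrin3 libraries, against 2717, 2733 and 2870 TPM in siCTRL libraries, without overlap, although the nearest libraries differed by far less than the spread within either group. That total was 0.261% of all TPM in siMatrin3 cells and 0.277% in siCTRL cells.

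The ratio of KRT8 to KRT18 overlapped between the groups, at 1.21, 1.27 and 1.28 in siMatrin3 libraries and 1.2, 1.22 and 1.25 in siCTRL libraries. The ratio of KRT19 to KRT18 did not, at 0.562, 0.503 and 0.530 in siMatrin3 libraries and 0.493, 0.364 and 0.438 in siCTRL libraries. The nearest libraries, at 0.503 and 0.493, differed by far less than the range within either group, and siCTRL replicate 2 was the lowest. KRT19 itself was not called. KRT18 made up 63.6% ± 1.14 of type I keratin mRNA in siMatrin3 cells and 68.3% ± 3.17 in siCTRL cells (SD, n = 3 each), while KRT19 made up 33.8% ± 1.3 in siMatrin3 cells and 29.3% ± 3.08 in siCTRL cells. KRT18 and KRT19 make up nearly all type I keratin mRNA, so their shares mirror each other and are not separate observations. On the type II side KRT7 made up 5.50%, 5.40% and 5.15% in siMatrin3 libraries and 3.36%, 3.97% and 4.01% in siCTRL libraries, with KRT8 at a mean of 93.6% in siMatrin3 cells and 95.3% in siCTRL cells. These shares describe the libraries and were not tested on their own, and with 3 libraries against 3 an exact permutation test cannot reach a two-sided p under 0.10.

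**Figure D3:**
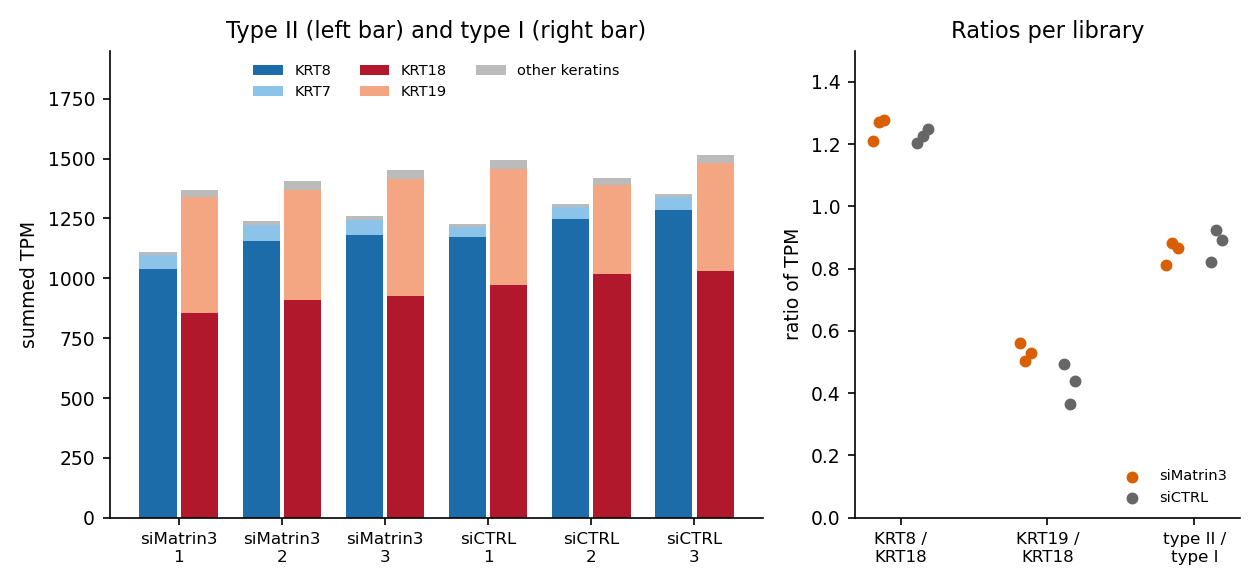
Left, summed TPM of type II keratins (left bar of each pair, blue) and type I keratins (right bar, red) in each library, divided into KRT8, KRT7, KRT18, KRT19 and all other keratin genes. Right, ratios of TPM per library, siMatrin3 in orange and siCTRL in grey. KRT19 over KRT18 separates the groups by a narrow gap (0.503 to 0.562 in siMatrin3 libraries, 0.364 to 0.493 in siCTRL libraries). KRT8 over KRT18 and type II over type I do not separate them.

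Reads of KRT8 and KRT18 can also match their many processed pseudogenes. The tables listed 49 KRT8 pseudogenes, which held 665 to 818 expected counts per library or 0.986% to 1.12% of the sum with KRT8, and 66 KRT18 pseudogenes with 69 to 86.9 counts or 0.147% to 0.176%. With these counts added to the parent genes, KRT18 still passed (edgeR adjusted p = 0.0286). KRT8 and KRT18 themselves, with 64729 to 80512 and 42229 to 54889 expected counts, had fractional counts in all 6 libraries, so that some reads were divided with other genes, whereas KRT19, KRT20, KRT10 and KRT15 had whole counts throughout. In GENCODE release 44 the KRT8 and KRT18 genes lie on opposite strands and share 525 exon bases, 17.1% of those of KRT18 and 7.63% of those of KRT8. KRT10 shares 61 exon bases with the antisense gene KRT10-AS1, which had 18.7 ± 1.17 TPM in siMatrin3 cells and 18.6 ± 0.301 TPM in siCTRL cells (SD, n = 3 each). The library kit marks the strand, but the strand setting of the counting is not given in the sources used here, and the part of such overlaps in the values was not tested.

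The weighted transcript length is the abundance-weighted mean length of the transcripts of a gene. A change of this length would show a shift between transcripts of different length. A shift between transcripts of similar length would leave it nearly unchanged and was not tested. Of the 6 members that could be tested, 0 passed the threshold in limma and 0 had an unadjusted p under 0.05, beside 0.00834% of 11984 genes called and 6.09% at an unadjusted p under 0.05. Since this test called almost no gene, 0 calls among the members carry little information. Even MATR3, at 2184 to 2254 bases in siMatrin3 libraries and 2436 to 2550 bases in siCTRL libraries, had an adjusted p of 0.383 in limma. The length of KRT8 was 1758 to 1763 bases and that of KRT18 1491 to 1497 bases over the 6 libraries. KRT15 was the most variable of those tested, between 1342 and 1740 bases, both extremes in siMatrin3 libraries. KRT10 has 1 transcript in the annotation, and KRT20 fell below the minimum of 50 counts.

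**Figure D4:**
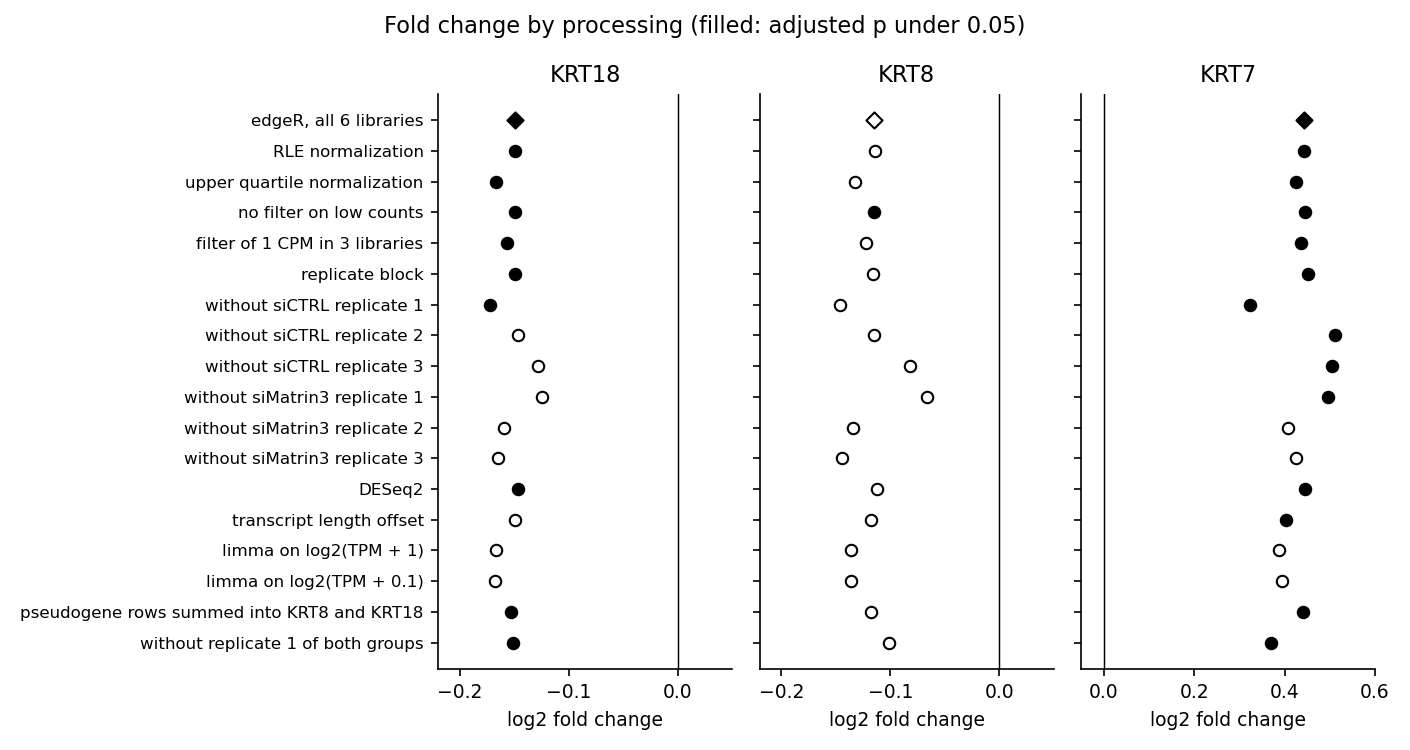
Log2 fold change of siMatrin3 over siCTRL (horizontal axes) for KRT18, KRT8 and KRT7 under the reported analysis (diamonds) and 17 alternatives (circles), filled where the adjusted p was under 0.05. No value crosses 0, and KRT18 is filled in 9 of the 17 alternatives, KRT8 in 1 and KRT7 in 13.

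The genes whose log2 CPM followed KRT18 most closely over the 6 libraries, among 9558 protein-coding genes of at least 5 TPM other than keratins, were YIPF3 (Pearson r = 0.996), AGA (0.991) and CCDC12 (0.990). Those closest to KRT8 were PDE4B (0.995), NEBL (0.984) and CDK9 (0.983), and KRT8 and KRT18 had an r of 0.93 with each other. These values only rank genes over 6 points that share library, depth and treatment, and carry no test.

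The genes that hold keratin filaments at the cell border were counted next. Of 22 desmosome, plakin and hemidesmosome genes, 21 were matched and 16 tested, and 0 rose and 4 fell in siMatrin3 cells (25%, beside 11% of all genes). Their median log2 fold change was -0.04, beside -0.00106 over all genes, and 7 did not overlap between groups (43.8%, beside 25.1%). The sum over the list was 1120 to 1147 TPM in siMatrin3 libraries and 1212 to 1294 TPM in siCTRL libraries. Within it, ITGB4 averaged 407 TPM in siMatrin3 cells and 475 TPM in siCTRL cells, and PERP 142 and 172 TPM. DSP, DSG2, PKP3 and PLEC had similar means in both groups, so the sum does not describe the list as a whole.

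PKP4, a plakophilin-related armadillo protein of cell junctions, had 17.1, 18.4 and 18.1 TPM in siMatrin3 libraries, against 25.3, 23.7 and 25.2 TPM in siCTRL libraries. It fell by 0.43 on the log2 scale in edgeR (SE 0.0457, adjusted p = 0.000571), well outside the spread of either group, and kept its call in every alternative. PKP2, a plakophilin of the desmosomal plaque, had 7.25, 7.19 and 7.41 TPM in siMatrin3 libraries, against 9.19, 8.63 and 8.91 TPM in siCTRL libraries (log2 fold change -0.29, adjusted p = 0.00448). PKP2 kept its call in 15 of 17 alternatives and lost it with limma on either TPM scale. PERP, a tetraspan membrane protein of desmosomes, had 130, 148 and 148 TPM in siMatrin3 libraries, against 179, 159 and 178 TPM in siCTRL libraries (log2 fold change -0.26, adjusted p = 0.0256). The call of PERP held in 9 of 17 alternatives. Among single libraries left out, it was lost without siCTRL replicate 1 (0.0675), siCTRL replicate 3 (0.0996), siMatrin3 replicate 1 (0.0582) or siMatrin3 replicate 3 (0.0582).

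The remaining gene called on this list, named after its value was seen, was the hemidesmosomal integrin subunit ITGB4, with 407 ± 17.4 TPM in siMatrin3 cells and 475 ± 28.4 TPM in siCTRL cells (SD, n = 3 each). Its log2 fold change of -0.17 (edgeR adjusted p = 0.0397) lost its call when any library but siCTRL replicate 2 was left out, with adjusted p between 0.0632 and 0.145. ITGB4 was called in 8 of 17 alternatives. Other genes of the list did not pass. DSP, which ties keratin filaments to the plaque, had 38.8 ± 0.813 TPM in siMatrin3 cells and 38.6 ± 0.423 TPM in siCTRL cells (SD, n = 3 each), and its log2 fold change was 0.02. DSG2 (0.03), DSC2 (0.14), JUP (-0.07), PKP3 (0.02) and the cytolinker PLEC (0.03) likewise had adjusted p over 0.05, and PPL (-0.16) was just outside the threshold (adjusted p = 0.051). ITGA6 (-0.14) and EVPL (-0.11) had edgeR adjusted p of 0.139 and 0.170. Among the genes not called, the groups did not overlap in TPM for DSC2, PPL and EVPL. Of the 16 genes tested on this list, 7 had positive and 9 negative values.

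**Figure D5:**
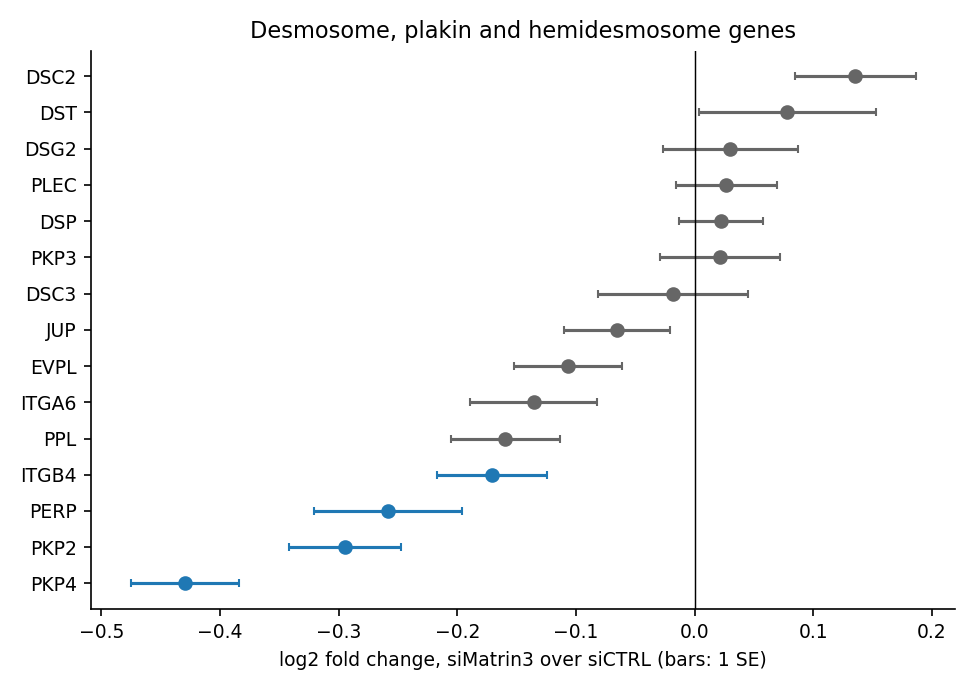
Log2 fold change of siMatrin3 over siCTRL (horizontal axis, bars 1 SE) for 15 tested genes of desmosomes, plakins and hemidesmosomes, blue where called lower and grey where not called. DSG4, at about 0.07 TPM, was tested and is not drawn. PKP4 (-0.43), PKP2 (-0.29), PERP (-0.26) and ITGB4 (-0.17) lie lowest, and DSP, DSG2, PKP3 and PLEC lie near 0.

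Among 22 genes whose products bind or modify keratins, all tested, 2 rose and 1 fell (13.6%, close to the 11% of all genes), with a median log2 fold change of 0.01. HSPA8, the constitutive HSP70 chaperone, had 1038, 1012 and 1008 TPM in siMatrin3 libraries, against 820, 833 and 826 TPM in siCTRL libraries. In edgeR it rose by 0.33 on the log2 scale (SE 0.0313, adjusted p = 0.000315) and kept its call in every alternative. TGM2, a transglutaminase that crosslinks keratins, fell to 4.54 ± 0.193 TPM in siMatrin3 cells, against 6.18 ± 0.674 TPM in siCTRL cells (log2 fold change -0.43, adjusted p = 0.014). TGM2 kept its call in 12 of 17 alternatives. Among single libraries left out, the call was lost without siCTRL replicate 3 (0.0632) or siMatrin3 replicate 3 (0.0585). FAM83H, which brings casein kinase 1 to keratin filaments, rose to 41.3 ± 0.996 TPM in siMatrin3 cells, against 37.8 ± 0.655 TPM in siCTRL cells (log2 fold change 0.14, adjusted p = 0.037). Its call was lost when any library but siCTRL replicate 2 was left out, with adjusted p between 0.065 and 0.142, and held in 7 of 17 alternatives.

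Of 23 epithelial transcription factors, 21 were tested, 2 rose and 1 fell (14.3%, close to the 11% of all genes), with a median log2 fold change of 0.03. KLF5, a factor of proliferating crypt cells, had 45.4, 44.5 and 45.9 TPM in siMatrin3 libraries, against 36.3, 38.1 and 38.6 TPM in siCTRL libraries. It rose with a log2 fold change of 0.29 (edgeR adjusted p = 0.00399) and kept its call in every alternative. GRHL3, a grainyhead-like factor of surface epithelia, rose to 0.937 ± 0.142 TPM in siMatrin3 cells, against 0.460 ± 0.0872 TPM in siCTRL cells (log2 fold change 1.03, adjusted p = 0.0102). This call was lost without siCTRL replicate 3 (0.0513), without siMatrin3 replicate 3 (0.0516) or with limma on log2(TPM + 0.1) (0.0568). TFAP2A fell by counts (log2 fold change -0.26, adjusted p = 0.0242), but its TPM overlapped, at 7.36 to 9.55 in siMatrin3 libraries and 8.15 to 9.24 in siCTRL libraries, and with a transcript length offset its log2 fold change was -0.07 (adjusted p = 0.782). Its call was also lost without siCTRL replicate 1 (0.0683), siCTRL replicate 3 (0.0829), siMatrin3 replicate 2 (0.0725) or siMatrin3 replicate 3 (0.105), and with limma on either TPM scale. The intestinal factor CDX2 had 8.36 ± 0.231 TPM in siMatrin3 cells and 8.09 ± 0.704 TPM in siCTRL cells (SD, n = 3 each) and was not called.

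Intermediate filament genes outside the keratin family gave no call. Of 17 such genes, 16 were matched and 12 tested. In edgeR 0 passed the threshold, beside 11% of all genes, and 0 had an unadjusted p under 0.05, beside 26%. Their median log2 fold change was -0.05, and shares of a list of 12 genes are imprecise. The nuclear lamins were the most abundant of them, with LMNA at 183 ± 8.19 TPM in siMatrin3 cells and 196 ± 8.21 TPM in siCTRL cells (SD, n = 3 each), which was not a call in edgeR (log2 fold change -0.07, adjusted p = 0.232). Vimentin (VIM), the filament protein of mesenchymal cells, stayed between 0.10 and 0.28 TPM in all libraries.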

How the data were processed

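Poly(A)-selected RNA of HCT116 cells was measured in 3 siMatrin3 and 3 siCTRL libraries, grouped by their labels. The kit was stranded. According to the submitters' processing notes, the tools were cutadapt, STAR 2.5.1 (the methods state a different version) and RSEM, on hg19. The authors deposited expected counts, in which RSEM splits a read that fits several genes among them. The authors' TPM values have the same sum in each library. The deposited length columns hold the abundance-weighted mean transcript length of each gene. The deposited FPKM values were not used. Gene names were matched for 88.3% of rows, and rows without a name took 0.941% of counts. Strand and exon overlap came from GENCODE release 44, which is on another build than the tables, so no coordinates are given.

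After rounding of the expected counts, low genes were removed by filterByExpr and libraries were scaled by TMM. Groups were compared with edgeR 4.0.16 in R 4.3.3 (quasi-likelihood, two-sided, no covariates), with Benjamini-Hochberg adjustment over all 16786 genes tested and a threshold of 0.05. The SE of an edgeR log2 fold change was derived from the test, as its absolute value divided by the square root of the F statistic. Weighted lengths were tested on the log2 scale with limma 3.58.1, in genes whose length varied and whose expected counts were at least 50 in every library. The alternatives were RLE and upper quartile normalization, no filter, a filter of 1 CPM in 3 libraries, a replicate block, leaving out each library, DESeq2 1.42.0 (the tool of the study), a transcript length offset, limma on log2(TPM + 1) and log2(TPM + 0.1), pseudogene counts added to KRT8 and KRT18 and, chosen after seeing the data, leaving out replicate 1 of both groups. These make 17 alternatives, beside a threshold of 0.01. The tests were checked on simulated data. P-values reflect only how libraries of a group differ among themselves, as estimated for each gene with information from the other genes tested. Libraries of a group differed by more than sampling noise, and none was a duplicate of another.

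All members were named, as were other keratin genes past the filter, up to 3 members of each further list with the smallest p among those called, and the 3 genes most like KRT18 and KRT8. Some further genes were named outside this rule, among them ITGB4 and genes not called, such as DSP, CDX2 and VIM. The members and the lists (desmosome and plakin genes, keratin binding and modifying genes, epithelial transcription factors, other intermediate filament genes and markers of 5 cell types) were chosen with earlier results of these data known.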

Additional observations from a re-analysis of the deposited data

How the results depend on the processing

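The number of genes changed, 1849, was 561 at a threshold of 0.01, 706 with an offset for transcript length, 437 on log2(TPM + 1) and 429 on log2(TPM + 0.1) in limma, 759 to 1599 when 1 library was left out and 2595 without the filter on low counts. Without replicate 1 of both groups, a setting chosen after seeing the data, it was 1216. The 1 keratin member called became 3 with no filter (KRT18, KRT8 and KRT19), 0 with the length offset, with limma on either TPM scale and at a threshold of 0.01, and 0 to 1 when 1 library was left out. The 3 keratin genes called became 7 with no filter, 0 with limma on either TPM scale and at a threshold of 0.01, and 0 to 2 when 1 library was left out. The cause of these differences was not tested. The count of members with a changed transcript length was 0 in every alternative. The reported length test called 1 of 11984 genes, so this 0 carries little information on the members. Of the marker lists, the intestinal list had 1 lower gene (KRT18) of 9 tested, the squamous list 1 higher (KRT13) of 3 and the fibroblast list 0 of 3. The endothelial list had 1 lower of 4 tested and the blood list 1 higher of 5. Beside the 11% of all genes called, shares of lists this small carry little information. The endothelial gene was ESAM (-0.35), not called when any 1 library was left out (adjusted p of 0.0503 to 0.151 in edgeR). ESAM was also not called with DESeq2 (0.113), the length offset or limma. The blood gene was ITGAM (0.85), not called when any 1 library was left out (0.082 to 0.159) or with DESeq2 (0.13). The value of ITGAM turned to -0.10 with the length offset, -0.032 with limma on log2(TPM + 1) and -0.10 on log2(TPM + 0.1). Fold changes of KRT20 rest on 38 to 55 counts per library, which limits their precision.

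Replicate numbers are shared between the groups, but nothing states that they pair cultures. Deviations of same-numbered libraries correlated at 0.477, 0.256 and 0.0127 over 10316 genes. By these correlations siMatrin3 replicates 1 and 3 were closest to the siCTRL library of their own number, and siMatrin3 replicate 2 to siCTRL replicate 3. These values do not settle whether cultures were paired, and no pairing was assumed in the reported analysis. With a replicate block, 2716 genes, 1 member and 3 keratin genes passed in edgeR, against 1849 genes without it. The adjusted p with the block was 0.0179 for KRT18, 0.0642 for KRT8, 0.0575 for KRT19 and 8.9e-05 for KRT7.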
